A study of Mus musculus with 12 samples.

Results

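Dicer1, Tarbp2, Drosha, Dgcr8 and Xpo5, the core genes that cut, carry and dice small RNA precursors, were followed through mouse oocyte growth and meiotic maturation in wild type (WT) and Zar1/2-null females. The set was chosen by name, with earlier results of these data known. Its 5 genes were taken as listed from a table of 23230 genes. Each of the 5 reached 1 FPKM in at least 1 library, as did 11502 genes of the table. The table holds 12 Smart-seq2 libraries in 6 groups of 2, each library made from 10 pooled oocytes of C57BL6/ICR hybrid mice. Growing oocytes came from females whose age is 13.5 days in the sample labels and 12 days in the study's methods. Fully grown germinal vesicle (GV) oocytes were taken 44 h after PMSG, and ovulated oocytes, labelled MII (metaphase of the second meiotic division), 16 h after hCG, in both cases from mice primed at 21 to 23 days. The Zar1/2-null females lacked both Zar1 and Zar2 by CRISPR/Cas9 editing in every tissue, not in oocytes alone. The study reports that ovulated null oocytes were arrested at metaphase I or telophase I. For null oocytes the label MII thus gives the time of collection and not the meiotic stage reached. In these libraries the effects of genotype and of meiotic stage at MII cannot be told apart. The study reports that WT oocytes held in meiosis I with nocodazole still degraded the selected mRNAs it measured. Whether this holds for the 5 genes was not tested here. Values are FPKM (fragments counted on a gene, relative to the length of its exons and to the size of the library) that the authors multiplied by an ERCC factor, so that a library with a larger share of the synthetic ERCC spike-in RNA was scaled down.

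In the nucleus the Microprocessor, made of the RNase III enzyme Drosha and its RNA-binding partner Dgcr8, cuts hairpins out of primary microRNA transcripts. Exportin 5, encoded by Xpo5, carries the precursors to the cytoplasm with Ran-GTP, and Dicer1, helped by the double-stranded RNA-binding proteins Tarbp2 and Prkra, dices them into mature duplexes that are loaded on Argonaute proteins. Mouse oocytes also use Dicer1 to make endogenous siRNAs from long double-stranded RNA, a route that skips the Microprocessor, and a short oocyte form of Dicer1 starts at a retrotransposon inside the gene. Mouse oocytes depend on Dicer1, whereas microRNA activity is low and Dgcr8 is dispensable for oocyte maturation. The table is summed by gene, so the short and the full-length Dicer1 cannot be told apart in it.

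One pair of sequences belongs to the gene set itself. In the NCBIM37 (mm9) annotation, Dgcr8 carries the 79-base hairpin of miR-1306 within its coding sequence (chr16:18284332-18284410, minus strand), so that the transcript of a Microprocessor subunit holds a substrate of the Microprocessor. The mature arms were copied from the RefSeq table and matched to the Dgcr8 transcript, 5′ to 3′, with the seed (bases 2 to 8) in capitals; the 5p arm lies at chr16:18284381-18284403 and the 3p arm at chr16:18284341-18284361.
mmu-miR-1306-5p: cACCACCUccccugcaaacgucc
mmu-miR-1306-3p: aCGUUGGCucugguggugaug
The seeds of the arms differ. The row listed as Mir1306 was erratic. It had 43.7 and 0 FPKM in WT growing oocytes, 0 in both WT GV libraries, under 1 and 37.0 FPKM in WT MII, under 1 in both null growing libraries, 63.4 and 0 FPKM in null GV and 0 in both null MII libraries. No level of the microRNA was read from this row, since reads of the Dgcr8 transcript and of a hairpin inside it cannot be told apart in libraries of this kind.

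The genotype labels were checked with the targeted genes. Zar1l, the listed symbol of Zar2, had 639 and 644 FPKM in WT growing oocytes against 17.5 and 13.2 in null ones, and the groups did not overlap at GV (504 to 533 FPKM in WT, 19.6 to 20.9 in null) or at MII (3.13 to 4.72 FPKM in WT, 1.01 to 1.36 in null). Zar1 transcripts remained in null oocytes, at 433 ± 37.3 FPKM when growing (SD, n = 2) against 664 ± 86.2 in WT, and its allele is a small deletion that the gene-level value does not check. All 10 oocyte markers examined reached 1 FPKM in both libraries of every group but WT MII, where 9 did. The 14 granulosa and cumulus markers summed to 3.91 to 24.9 FPKM per library, most of it Cyp19a1, and without that gene to between 0.0503 and 5.88 FPKM. Their sums did not overlap between the genotypes at any stage. WT lay above null in growing oocytes (20.8 to 24.9 against 6.04 to 10.7 FPKM). It was also above null at GV (12.6 to 14.1 against 9.90 to 11.8) and below it at MII (3.91 to 4.06 against 6.01 to 7.20). Without Cyp19a1 the order at GV was reversed, with WT below null (2.06 to 2.65 against 3.29 to 3.62 FPKM). The order without that gene was unchanged in growing oocytes and at MII (0.0503 to 0.0584 in WT against 0.126 to 0.200 in null). The part of these markers in the genotype differences was not tested. Replicates correlated at Spearman 0.973 to 0.978 over the 11502 genes. Nothing in the labels says whether the 2 libraries of a group came from separate animals, so p-values measure the spread between libraries. The ERCC factors ran from 1 in WT growing oocytes to 0.225 and 0.228 in WT MII. A lower ERCC-scaled value can reflect fewer oocytes in a library or less RNA per oocyte, which cannot be told apart, and the oligo-dT priming of Smart-seq2 does not separate loss of a transcript from loss of its poly(A) tail.

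Tarbp2 and Dicer1 were the most abundant of the 5 transcripts per length before maturation, and Dgcr8 the least. Within each library of every group except WT MII the order of FPKM was Tarbp2, Dicer1, Drosha, Xpo5 and Dgcr8. In both WT MII libraries it was Dicer1, Drosha, Xpo5, Tarbp2 and Dgcr8, and there the ranges of Xpo5, Tarbp2 and Dgcr8 overlapped. The ranges of Dicer1 and Drosha also overlapped in null GV oocytes, and no other neighbours in the order overlapped.

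**Figure D1:**
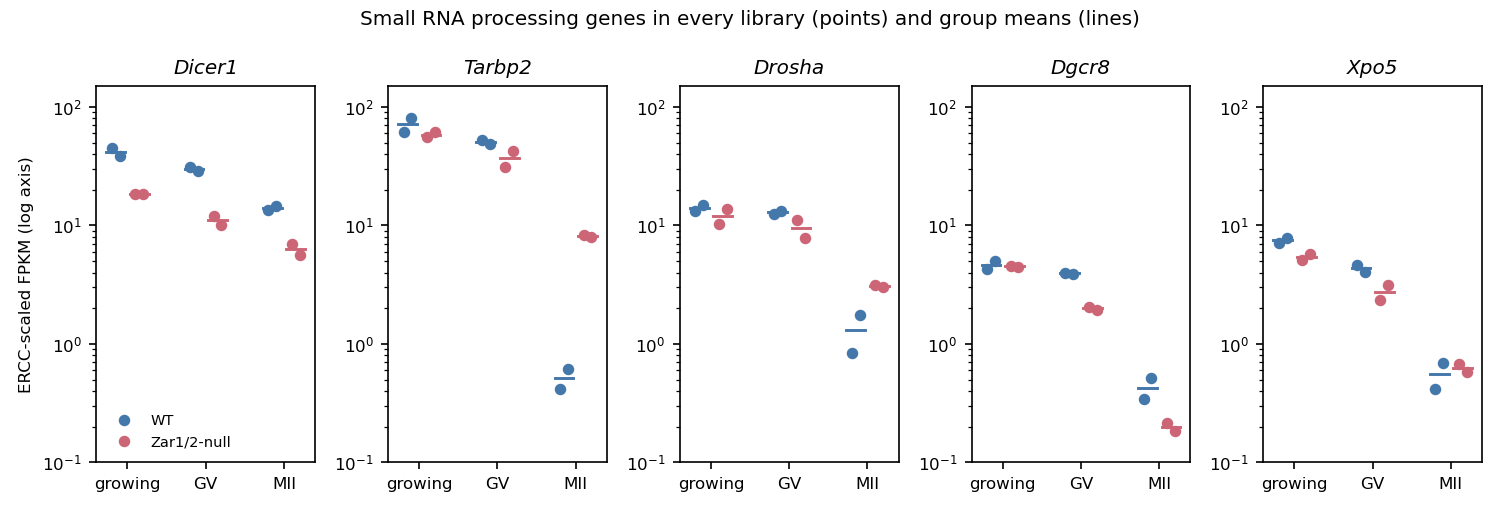
ERCC-scaled FPKM (log axis) of each gene in each library (points) and the mean of the 2 libraries (lines), for WT and Zar1/2-null oocytes at 3 stages. Dicer1 was lower in null libraries at every stage, whereas Tarbp2 in WT MII oocytes fell to 0.414 and 0.612 FPKM, below the null MII libraries at 8.23 and 7.95.

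The first question was whether loss of ZAR1/2 goes with altered levels of these genes at each stage. Dicer1 was the only 1 of the 5 to be called lower in null oocytes at all 3 stages, at 44.3% of the WT mean in growing, 36.6% in GV and 45.02% in MII oocytes. Of all genes tested, 24.4%, 40.6% and 10.3% were called lower at these stages. The share called lower at all 3 stages was not computed. The other 4 genes differed by stage, and at MII Tarbp2 and Drosha were higher in null oocytes. Each difference was also computed on unscaled FPKM, with the ERCC factor taken out, and after median scaling, in which libraries were set to the same median over genes expressed in all of them. The comparisons between genotypes and between stages share libraries, so their values are not independent of each other.

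Drosha, the catalytic subunit of the Microprocessor, had 13.2 and 14.8 FPKM in WT and 10.3 and 13.8 in null growing oocytes, and the libraries overlapped. At GV it had 12.5 and 13.2 FPKM in WT and 11.2 and 7.83 in null oocytes. At MII it had 0.833 and 1.77 FPKM in WT and 3.16 and 3.04 in null oocytes, so that both null libraries lay above both WT libraries. The log2 fold changes, null over WT on the log2(FPKM + 1) scale throughout, were -0.21 in growing oocytes (adjusted p = 0.489) and -0.42 at GV (adjusted p = 0.136), which did not pass, and 0.86 at MII (SE 0.22, 95% interval 0.38 to 1.34, adjusted p = 0.0101), by limma, Benjamini-Hochberg adjusted over all genes tested. In mean FPKM the MII difference was 2.38-fold. The 2 WT MII libraries were far apart, and the MII call was lost without WT MII replicate 1 (log2 fold change 0.57, adjusted p = 0.111) and without null MII replicate 1 (0.84, adjusted p = 0.0585). The MII difference was called on unscaled FPKM (0.97) and with scaling to the median (0.95), whereas the lower value at GV became 0.07 after median scaling and that in growing oocytes became 0.06 and 0.04 under these scalings.

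Dgcr8, the subunit that recognises the hairpin, had 4.27 and 4.96 FPKM in WT and 4.56 and 4.49 in null growing oocytes, which overlapped (log2 fold change -0.02, 95% interval -0.29 to 0.25). At GV it had 3.98 and 3.90 FPKM in WT against 2.07 and 1.92 in null oocytes, with no overlap. There it was at 50.6% of the WT mean (log2 fold change -0.72, SE 0.12, adjusted p = 0.000993 by limma, Benjamini-Hochberg adjusted). At MII it had 0.343 and 0.512 FPKM in WT and 0.215 and 0.183 in null oocytes, below 1 FPKM in all 4 libraries, and the difference did not pass (log2 fold change -0.25, adjusted p = 0.156). With a pseudocount of 0.1 FPKM (-0.80), on unscaled FPKM (-0.72) and after median scaling (-0.85) the MII difference was called. The call at GV was lost on unscaled FPKM (-0.43, adjusted p = 0.116) and after median scaling (-0.36, adjusted p = 0.158). The 3′ end of Dgcr8 overlaps Trmt2a on the opposite strand, and Smart-seq2 does not mark strand, so that reads of the shared bases can count for either gene; Trmt2a had 3.50 and 2.85 FPKM in WT and 2.65 and 3.32 in null GV oocytes.

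Xpo5, the exporter of precursors, had 7.08 and 7.84 FPKM in WT and 5.06 and 5.72 in null growing oocytes, without overlap, and the difference did not pass (log2 fold change -0.41, adjusted p = 0.0569). At GV it had 4.67 and 4.04 FPKM in WT against 2.37 and 3.13 in null oocytes, which was 63.1% of the WT mean (log2 fold change -0.52, SE 0.15, adjusted p = 0.0169 by limma, Benjamini-Hochberg adjusted). At MII it had 0.418 and 0.687 FPKM in WT and 0.675 and 0.578 in null oocytes, which overlapped. The GV call was lost without WT GV replicate 1 (adjusted p = 0.112), without null GV replicate 1 (adjusted p = 0.110), with only the libraries compared in the fit (adjusted p = 0.0914), on unscaled FPKM (log2 fold change -0.19) and after median scaling (-0.11).

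Dicer1, the enzyme that makes both mature microRNAs and endogenous siRNAs, had 44.6 and 38.3 FPKM in WT and 18.4 and 18.3 in null growing oocytes. At GV it had 31.3 and 28.9 FPKM in WT and 11.99 and 10.05 in null oocytes. At MII it had 13.5 and 14.5 FPKM in WT and 6.93 and 5.65 in null oocytes. Every null library lay below both WT libraries of its stage. The log2 fold changes were -1.13 in growing oocytes (SE 0.15, adjusted p = 0.000262), -1.38 at GV (adjusted p = 7.88e-05) and -1.04 at MII (adjusted p = 0.000267), by limma, Benjamini-Hochberg adjusted. On unscaled FPKM they were -0.86, -0.96 and -1.36, after median scaling -0.87, -0.88 and -1.44, and all passed. The median of all genes tested was -0.16, -0.38 and 0.06 at the 3 stages with ERCC scaling, and 0.08, -0.03 and -0.0027 without it. The genotype difference in Dicer1 did not differ detectably between GV and growing oocytes (-0.25, 95% interval -0.72 to 0.23, adjusted p = 0.485) or between MII and GV (0.33, interval -0.14 to 0.80, adjusted p = 0.240); these intervals do not exclude a change in either direction.

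Tarbp2, the double-stranded RNA-binding partner of Dicer1, had 61.6 and 80.5 FPKM in WT and 55.2 and 61.1 in null growing oocytes. At GV it had 52.9 and 48.7 FPKM in WT and 30.9 and 42.8 in null oocytes. At MII it had 0.414 and 0.612 FPKM in WT and 8.23 and 7.95 in null oocytes. The libraries did not overlap in any of the 3 stages, lower in null at the first 2 stages and higher at MII. The differences in growing oocytes (log2 fold change -0.27, adjusted p = 0.276) and at GV (-0.47, adjusted p = 0.0593) did not pass, and that at MII was 2.59 (SE 0.18, 95% interval 2.18 to 2.996, adjusted p = 8.22e-07 by limma, Benjamini-Hochberg adjusted). Without scaling, Tarbp2 still read 1.84 and 2.69 FPKM in WT MII against 29.1 and 31.5 in null MII libraries. The mean ERCC-scaled FPKM differed 15.8-fold, and 8.09-fold with the WT mean raised to 1 FPKM, the floor the study applies. The MII difference was 3.27 on unscaled FPKM and 3.33 after median scaling, whereas the value at GV turned to 0.05 after median scaling and that in growing oocytes to 0.0095 on unscaled FPKM.

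**Figure D2:**
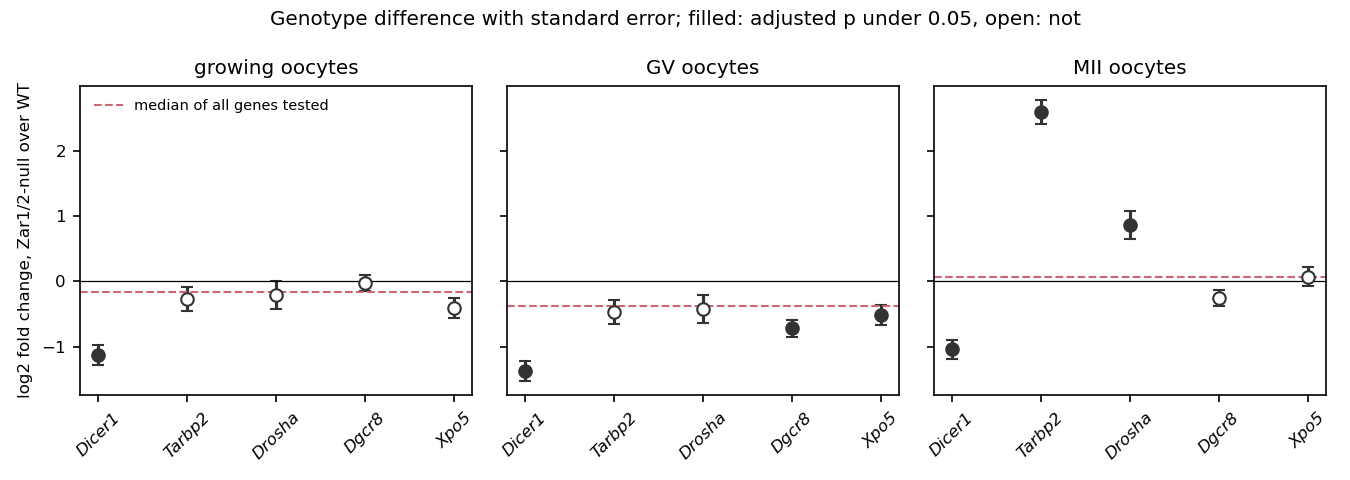
Log2 fold change of Zar1/2-null over WT (points) with its standard error (bars) for each gene at each stage, filled where the adjusted p was under 0.05, with the median of all genes tested as a dashed line. Dicer1 is filled and near or below -1 in all 3 panels, and Tarbp2 stands at 2.59 at MII. With scaling to the median or none, some open points changed sign. These were Drosha, Dgcr8 and Tarbp2 in growing oocytes, Drosha (-0.42) and Tarbp2 (-0.47) at GV, and Xpo5 at MII.

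Counted over the set, 1 of 5 genes was lower in null growing oocytes and none was higher, where 24.4% of all genes tested were lower and 10.6% higher. At GV 3 of 5 were lower, against a background of 40.6% lower and 2.83% higher. All 5 had GV libraries that did not overlap, lower in null, as did 63.6% of all genes. At MII 2 of 5 were higher and 1 lower, against 21.5% and 10.3% of all genes. By the fold rule of the study, more than 3-fold in mean FPKM, Tarbp2 at MII was the only 1 of the 5 to pass, where 7.49% of all genes were that much higher. With 5 genes, counts of this size cannot be read as different from the background.

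The second question was how the levels changed along the stages in each genotype. From growing to GV oocytes in WT, 2 of 5 genes fell, Dicer1 to 72.6% of its growing level (log2 fold change -0.45, adjusted p = 0.0437) and Xpo5 to 58.4% (-0.66, adjusted p = 0.00965, both by limma, Benjamini-Hochberg adjusted); 28.7% of all genes fell and 2.77% rose. In null oocytes 4 of 5 fell, all but Drosha, where 55.9% of all genes fell and 4.76% rose. Dgcr8 fell to 44.1% of its growing level in null oocytes, against 85.4% in WT. The genotype difference in Dgcr8 was larger at GV than in growing oocytes by -0.70 (SE 0.17, adjusted p = 0.0252), the only 1 of 5 to pass this test, which 11.3% of all genes passed in that direction and 2.58% in the other. That call was lost without WT growing replicate 1, WT GV replicate 1, null growing replicate 2 or null GV replicate 2 (adjusted p from 0.0505 to 0.0739), and also on unscaled FPKM (adjusted p = 0.162), after median scaling (0.222), with a pseudocount of 0.1 FPKM (0.0782) and with only the libraries compared in the fit (0.0788). In WT none of the falls was called on unscaled FPKM or after median scaling, and in null oocytes 1 member, Dgcr8, was called lower on unscaled FPKM and 0 after median scaling. In WT Drosha and Dgcr8 turned to higher values in GV oocytes under both. The WT count fell to 0 without WT growing replicate 2 or WT GV replicate 2, and to 1 without WT growing replicate 1 or WT GV replicate 1.

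From GV to MII the set came apart. In WT all 5 fell on the ERCC scale, as did 93.4% of all genes while 0.104% rose, but Dicer1 kept 46.4% of its GV level while Drosha kept 10.1%, Dgcr8 10.8%, Xpo5 12.7% and Tarbp2 1.01%. The 4 ratios of single libraries ran from 43.1% to 49.96% for Dicer1 and from 0.782% to 1.26% for Tarbp2, so the genes did not overlap in this measure. The log2 change was -1.05 for Dicer1 and -5.10 for Tarbp2, where the median over all genes was -1.28. More than a 10-fold fall was seen for 1 of the 5, Tarbp2, and for 15.7% of all genes. Without the ERCC scaling the direction for Dicer1 was the opposite. Its log2 change was 0.63 on unscaled FPKM (adjusted p = 0.00377) and 1.27 after median scaling (adjusted p = 2.20e-05, both by limma, Benjamini-Hochberg adjusted). Unscaled, Dicer1 had 37.4 and 41.5 FPKM in GV and 60.04 and 63.5 in MII oocytes. Drosha, Dgcr8, Xpo5 and Tarbp2 were lower at MII under every scaling.

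In null oocytes all 5 also fell from GV to MII, as did 68.7% of all genes while 0.209% rose. Dicer1 kept 57.1% of its GV level, Drosha 32.7%, Xpo5 22.8%, Tarbp2 22.0% and Dgcr8 9.99%. The difference between the genotypes in this step was tested directly. It was 3.06 for Tarbp2 on the log2 scale (SE 0.26, 95% interval 2.49 to 3.63, adjusted p = 6.15e-06) and 1.29 for Drosha (SE 0.31, adjusted p = 0.00873, limma, Benjamini-Hochberg adjusted), so that 2 of 5 passed where 33.9% of all genes did in that direction and 0.643% in the other. The median over all genes was 0.48. Dgcr8 (0.47, adjusted p = 0.0554) and Xpo5 (0.59, adjusted p = 0.0510) did not pass. For Dgcr8 the share kept was alike, 10.8% in WT and 9.99% in null oocytes, with MII values below 1 FPKM. Its 0.47 on the log2(FPKM + 1) scale does not show a larger share kept in null oocytes. The value for Dgcr8 turned negative on unscaled FPKM and after median scaling. The test for Tarbp2 held on unscaled FPKM (3.30) and after median scaling (3.27), and that for Drosha did not (adjusted p = 0.128 and 0.123). The null change of Dicer1 from GV to MII was -0.72 with the ERCC scaling, 0.24 without it (adjusted p = 0.208, with unscaled libraries that overlapped) and 0.72 after median scaling (adjusted p = 0.00181). The null fall of Drosha was not called under either of the other scalings (-0.50, adjusted p = 0.170, on unscaled FPKM and -0.03, adjusted p = 0.930, after median scaling), that of Xpo5 was not called after median scaling (-0.45, adjusted p = 0.0505), and those of Dgcr8 and Tarbp2 were called under both.

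**Figure D3:**
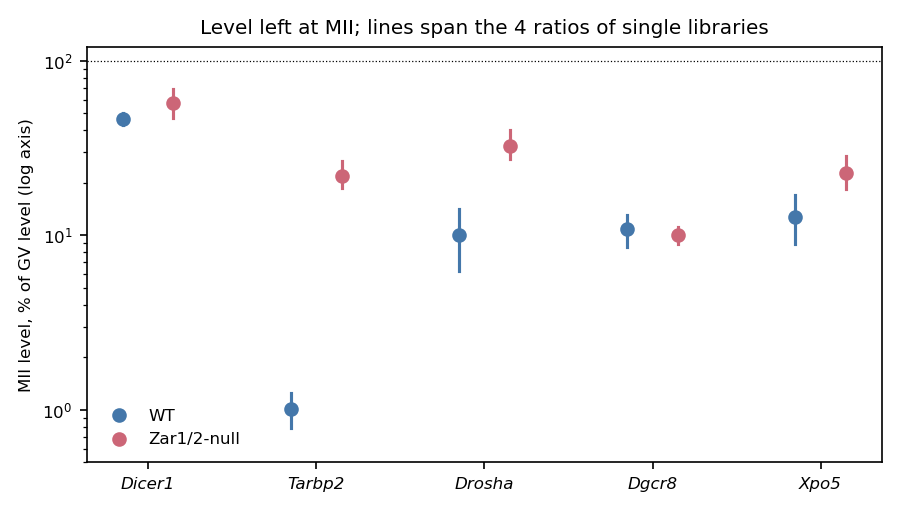
ERCC-scaled level at MII as a percentage of the GV level (log axis), as the ratio of group means (points) with the range of the 4 ratios between single libraries (lines). In WT Dicer1 kept 46.4% and Tarbp2 1.01%, and in null oocytes 57.1% and 22.0%; Dicer1 was called higher at MII than at GV on unscaled FPKM in WT and after median scaling in both genotypes, and its unscaled null libraries overlapped.

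A ratio of 2 genes within a library does not depend on the ERCC factor. The ratio of Tarbp2 to Dicer1 was chosen after the values were seen, and is given as a description. In WT it was 1.38 and 2.098 in growing, 1.69 and 1.68 in GV and 0.0307 and 0.0423 in MII oocytes. In null oocytes it was 2.997 and 3.34 in growing, 2.57 and 4.26 in GV and 1.19 and 1.41 in MII oocytes. The partner thus outnumbered the enzyme per length in 10 of 12 libraries, and in the WT MII libraries the enzyme outnumbered the partner by 32.6-fold and 23.6-fold. The null ratio was above the WT ratio at every stage, by 1.82-fold and 2.02-fold at the first stages and 35.5-fold at MII. Within the Microprocessor the ratio of Drosha to Dgcr8 was 2.25 to 5.40 in all libraries except null MII, where it was 14.7 and 16.6. Tarbp2 in WT MII and Dgcr8 in every MII library lay below 1 FPKM, so the ratios there have unknown counting error.

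**Figure D4:**
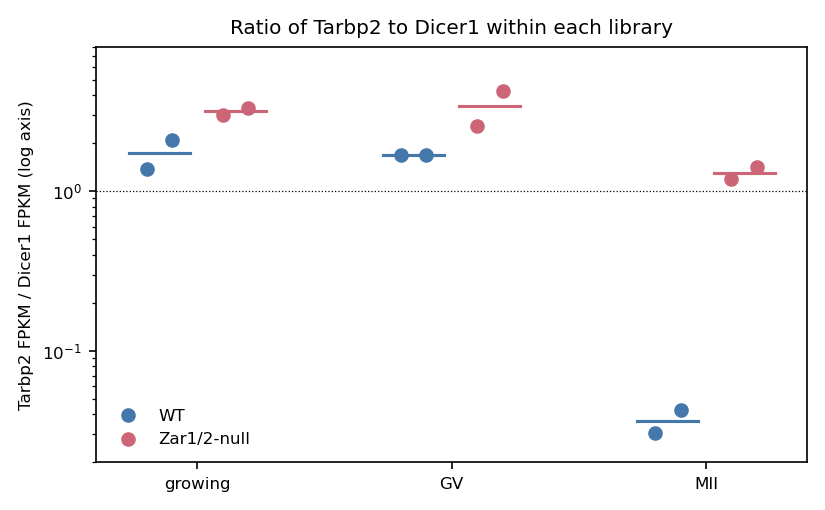
Tarbp2 FPKM divided by Dicer1 FPKM within each library (points, log axis) and the mean of the 2 libraries (lines), with equality dotted. WT MII libraries lie at 0.0307 and 0.0423, and the other libraries between 1.19 and 4.26.

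Of 26 other genes of the pathway, all listed in the table, 23 passed the filter on low values. In growing oocytes 3 were higher and 3 lower in null, where 10.6% of all genes were higher and 24.4% lower, with a median log2 fold change of -0.06 beside -0.16 over all genes tested. At GV none was higher and 10 were lower, where 40.6% of all genes were lower (median -0.48 beside -0.38). At MII 2 were higher and 5 lower, where 21.5% and 10.3% of all genes were (median -0.28 beside 0.06). In WT all 23 fell from GV to MII, where 93.4% of all genes fell, with a median of -0.87 beside -1.28. The GV count and the WT count from GV to MII are near the background shares. Calls of these other genes are on the ERCC scale only. Whether they hold under the other scalings was not tested.

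Among partners of Dicer and the effector complex, Prkra, which binds Dicer1 as Tarbp2 does, was low. It had 1.19 and 1.36 FPKM in WT and 2.02 and 1.95 in null growing oocytes, a rise of 0.39 (adjusted p = 0.0481), and between 0 and 0.0642 FPKM in every MII library. Snd1, a nuclease that acts on edited double-stranded RNA, had 1.34 and 2.11 FPKM in WT MII against 5.49 and 5.12 in null MII (log2 fold change 1.23, adjusted p = 0.000963). Tsn, which with Tsnax forms an endonuclease that clears Argonaute passenger strands, was lower at GV (-0.47) and MII (-0.48). The medians over all genes tested were -0.38 and 0.06 at these stages.

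The Argonautes carry the small RNA. Eif2c2 (Argonaute 2), the slicing member, had 3.89 and 4.02 FPKM in WT and 2.88 and 2.91 in null growing oocytes, and did not pass at any stage (adjusted p from 0.0836 to 1). Eif2c3 (Argonaute 3) had 5.64 and 5.71 FPKM in WT and 3.45 and 2.50 in null growing oocytes, a fall of 0.76 (adjusted p = 0.00389), and did not pass at GV or MII. Eif2c1 and Eif2c4 did not reach 1 FPKM in any library. Among the GW182 proteins, which join Argonautes to deadenylases, Tnrc6b was lower at all 3 stages (-0.47, -1.21 and -0.92), and at MII it had 1.99 and 2.104 FPKM in WT against 0.667 and 0.560 in null oocytes. Tnrc6a rose in null growing oocytes (0.40, adjusted p = 0.0238) and fell at GV (-0.71, adjusted p = 0.000911, limma, Benjamini-Hochberg adjusted).

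Around the nuclear steps, Ddx17, an RNA helicase of the Microprocessor, was lower at GV (-0.78) and MII (-0.48). Lin28a, which binds the let-7 precursor, was lower at GV (-1.15, adjusted p = 0.000201) and MII (-0.44). Zcchc6, a uridyl transferase that acts on precursors and on mRNA, was lower in growing (-0.66) and GV oocytes (-0.81). Ran, the export partner of Xpo5, had 13.4 and 10.3 FPKM in WT MII against 25.4 and 21.0 in null MII, a rise of 0.92 (adjusted p = 0.00208), while Xpo5 itself overlapped there.

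**Figure D5:**
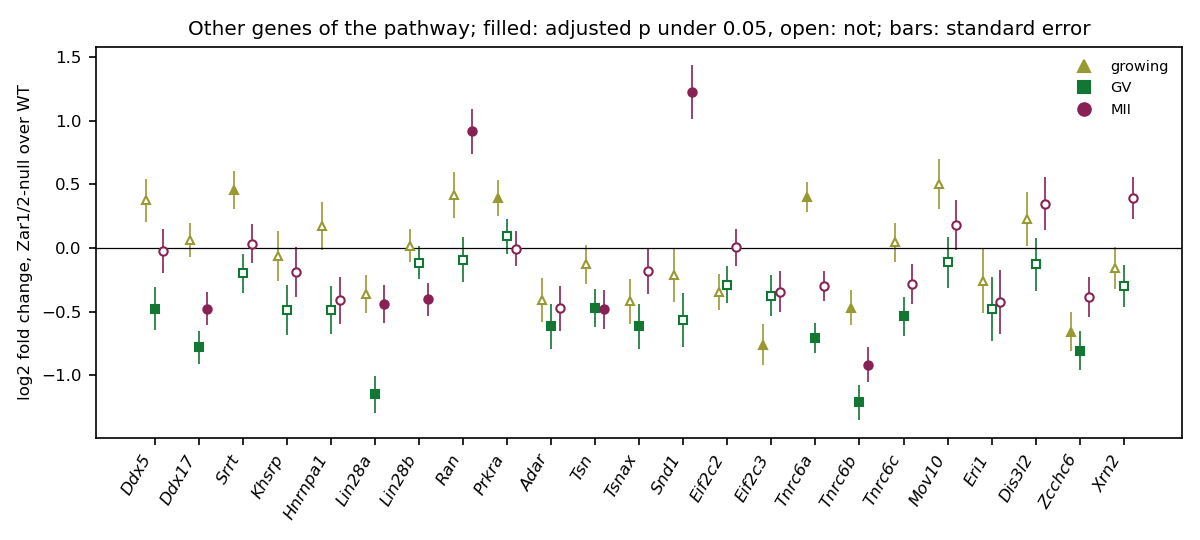
Log2 fold change of Zar1/2-null over WT (points) with its standard error (bars) for the 23 other pathway genes that passed the filter, at 3 stages, filled where the adjusted p was under 0.05. Tnrc6b is filled below 0 at every stage, and Snd1 (1.23) and Ran (0.92) are the filled points above 0 at MII.

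Across the 12 libraries, on log2(FPKM + 1), Pearson's r between Dicer1 and the others was 0.54 with Tarbp2, 0.63 with Drosha, 0.80 with Xpo5 and 0.81 with Dgcr8. Among the other 4 genes it ran from 0.87 (Dgcr8 and Tarbp2) to 0.98 (Dgcr8 and Xpo5). The libraries share the stage and the ERCC factor, and the MII libraries lie apart from the rest, so these are descriptions. Among the genes whose mean reached 10 FPKM, 4271 for Dicer1 and Tarbp2, which are themselves of that level, and 4272 for the other members, 9.48% followed Dicer1 with r over 0.9, against 49.0% for Tarbp2, 50.5% for Drosha, 54.6% for Dgcr8 and 59.3% for Xpo5. The genes whose pattern was most like Dicer1 were Akap17b (0.991), Hnrnpa2b1 (0.989) and Dek (0.987). Those most like Tarbp2 were Gfer (0.999), Reep5 and Nudt9 (both 0.998), and those most like Drosha were Fmnl3 (0.997), Zfp592 (0.992) and Dnmt1 (0.9903). Sugt1 (0.996), Ero1lb (0.995) and Gspt2 (0.993) were most like Dgcr8, and Ensa (0.996), Ppap2b (0.996) and 4930471M23Rik (0.995) most like Xpo5.

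In the NCBIM37 annotation the genes differ in size and surroundings. Dicer1 lies on the minus strand (chr12:105925952-105990162) with 4 coding transcripts, and the one with the longest coding sequence has 9851 bases, of which 5751 are coding. Drosha (chr15:12754570-12865045) and Tarbp2 (chr15:102348623-102354107) lie on the plus strand of 1 chromosome, Dgcr8 on the minus strand of another (chr16:18254041-18289342), and Xpo5 on a plus strand (chr17:46339804-46379248), where it overlaps Mir693, a row at 0 in all libraries. The motif TTTTAT, a cytoplasmic polyadenylation element, was searched in 1 transcript per gene, that with the longest coding sequence. In the last 100 bases of the annotated 3′ UTR it was found in none of the 4 genes whose UTR is that long, where 13.7% of 17613 genes held it. The annotated UTR of Xpo5 is shorter than that window. The Dgcr8 transcript held no poly(A) signal there, where 78.6% of genes did, so its annotated 3′ end is uncertain. Over the whole annotated 3′ UTR of these transcripts the motif occurred 4 times in Dicer1 and 3 times in Dgcr8, and 0 times in Drosha, Tarbp2 and Xpo5.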

How the data were processed

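Transcriptomes of WT and Zar1/2-null oocytes were read with Smart-seq2 in 12 libraries. The authors deposited FPKM values for 23230 genes, made from reads mapped uniquely to mm9 with TopHat2 2.1.1 and assembled with Cufflinks 2.2.1, and multiplied by a factor set by the ERCC share of each library. All value columns matched a sample. The factors were recovered from steps in the deposited digits (tolerance 0.02 of the last digit), which gave the unscaled FPKM values. Read counts were not used here, so the counting error of a gene is unknown.

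Genes with at least 1 FPKM in 1 library (11502) were fitted with limma 3.58.1 (R 4.3.3) on log2(FPKM + 1), with a mean for each of the 6 groups, a trended prior and Benjamini-Hochberg adjustment over all genes at 0.05. This scale understates the change of low genes. An exact permutation test of 2 against 2 libraries cannot go below 0.333. The fit was checked on simulated data for the GV genotype comparison, with 200 of 11095 genes changed 6-fold. It recovered 97.5% of them, and 6.25% of the calls were false. Smaller and more widespread changes, as in these data, were not simulated. Plots were drawn with matplotlib 3.10.9.

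The members, pathway and marker lists were chosen with earlier results of these data known. Named were the 5 members at each stage, Zar1, Zar1l and Mir1306, the Argonautes, Prkra and pathway genes called at 2 or more stages, and the 3 genes most correlated with each member (mean of at least 10 FPKM). Snd1, Ran, Trmt2a and the ratios within libraries were chosen after their values were seen. Alternatives were other scalings, filters, pseudocounts and fits, and the omission of each library.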

Additional observations from a re-analysis of the deposited data

Results flagged for a closer look

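By a test of the change itself (limma, Benjamini-Hochberg adjusted), the genotype difference changed between stages for 3 of the 5 genes on the ERCC scale. From GV to MII it was called for 2 of 5, where 33.9% of all genes were called in that direction. From growing to GV it was called for 1 of 5, where 11.3% of all genes were called in that direction. With 5 genes, these counts cannot be read as different from the background. For Tarbp2 the difference at MII exceeded that at GV by 3.06 on the log2 scale (SE 0.26, adjusted p = 6.15e-06), as WT libraries went from 52.9 and 48.7 to 0.414 and 0.612 FPKM and null libraries from 30.9 and 42.8 to 8.23 and 7.95. For Drosha the same difference was 1.29 (SE 0.31, adjusted p = 0.00873), which was not called on unscaled FPKM or after median scaling. For Dgcr8 the difference at GV exceeded that in growing oocytes by -0.70 (SE 0.17, adjusted p = 0.0252), and this call was also lost under both scalings and without any of 4 libraries. Groups of 2 libraries are too small for a test of outlying samples.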

How the results depend on the processing

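The lower Dicer1 in null oocytes at all 3 stages and the higher Tarbp2 at MII were called under every alternative run, each omission of a library included. The scaling mattered most elsewhere. On unscaled FPKM and after median scaling, 1 and 1 members were called at GV (3 as reported), 0 and 0 in WT from growing to GV (2), 1 and 0 in null from growing to GV (4), 3 and 3 in null from GV to MII (5), 0 and 0 for the change of the genotype difference from growing to GV (1), and 1 and 1 for that from GV to MII (2). These counts take both directions. After median scaling the 3 in null from GV to MII included Dicer1, called higher. In WT from GV to MII Dicer1 was called higher under both scalings.

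On unscaled FPKM the log2 value turned in growing oocytes, null over WT, for Drosha (0.060), Dgcr8 (0.22) and Tarbp2 (0.0095), at MII for Xpo5 (-0.023), from growing to GV for Drosha (0.26 in WT, 0.19 in null) and Dgcr8 (0.14 in WT), from GV to MII for Dicer1 (0.63 in WT, 0.24 in null), and in the change of the genotype difference from GV to MII for Dicer1 (-0.40) and Dgcr8 (-0.29). After median scaling it turned in growing oocytes for Drosha (0.039) and Dgcr8 (0.20), at GV for Drosha (0.069) and Tarbp2 (0.052), at MII for Xpo5 (-0.072), from growing to GV for Drosha (0.28 in WT, 0.30 in null), Dgcr8 (0.15 in WT) and Tarbp2 (0.00054 in null), from GV to MII for Dicer1 (1.27 in WT, 0.72 in null), and in the change of the genotype difference for Drosha (0.029), Xpo5 (0.059) and Tarbp2 (0.064) from growing to GV and for Dicer1 (-0.55) and Dgcr8 (-0.49) from GV to MII.

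A mean of at least 5 FPKM removes Dgcr8 and Xpo5, and of the other 3 members it called 1 at GV, 1 in WT and 2 in null from growing to GV, 3 in WT and 3 in null from GV to MII, and 0 for the change of the genotype difference to GV. Averaged ERCC factors called 2 members in growing oocytes. From growing to GV in WT, 1 was called with a pseudocount of 0.1 FPKM and 1 with only the libraries compared, and both settings called 0 for the change of the genotype difference. The causes were not tested. Leaving out 1 library gave 0 to 2 members in WT from growing to GV, 0 to 1 for the change of the genotype difference to GV, and 1 to 2 members over 3-fold apart at MII, where Drosha passed without WT MII replicate 2. It turned, among values that were not called, Dgcr8 in growing oocytes (-0.11 to 0.069), Xpo5 at MII (-0.053 to 0.20), and, in the change to GV, Drosha (-0.44 to 0.016), Xpo5 (-0.26 to 0.032) and Tarbp2 (-0.43 to 0.033).

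Deviations of same-numbered replicates correlated at -0.12 to 0.16 over 15 pairs of groups, 4 of them over 0.1. Low correlations cannot exclude that the replicate numbers pair the libraries. Both WT growing libraries had an ERCC factor of 1, although the study lists different ERCC shares for them. The scaling may therefore have been set within each replicate number. With a replicate block Tarbp2 was called at GV (adjusted p = 0.0402) and Xpo5 in the change from GV to MII (adjusted p = 0.0465). Values below 1 FPKM, as for Dgcr8 and Xpo5 at MII and Tarbp2 in WT MII, have unknown counting error.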
